A study of Mus musculus with 6 samples.

Results

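The 9 transcripts described here are those of effector and tissue-homing chemokine receptors, Ccr2, Ccr4, Ccr6, Ccr8, Ccr9, Cxcr3, Cxcr4, Cxcr5 and Cxcr6. They were chosen by name, all 9 had a row among the 31017 genes of the count table, and all 9 passed the filter on low counts that left 14268 genes for testing. RNA was sequenced from mouse helper T cells differentiated in culture toward the Th17 type, the helper cells named for the interleukin 17 they secrete. Libraries with the genotype WT, titled Control, numbered 3, and libraries with the genotype KO, which lack RTF1, also numbered 3. RTF1 acts in the nucleus together with the PAF1 complex on transcribing RNA polymerase II and is needed for the monoubiquitination of histone H2B. The study compared gene expression between these groups. The RTF1 allele, what drives its deletion and the mouse strain and age are not given in the sources used here. The time in culture, the cytokines added and whether each library came from a separate animal are not given either. The p-values therefore measure only the spread between these libraries.

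Chemokine receptors are 7-transmembrane receptors that couple to inhibitory G proteins and steer migrating leukocytes up gradients of small secreted proteins, the chemokines. After ligand binding, receptor kinases and arrestins switch the receptor off and carry it into the cell, and RGS proteins end the G protein signal. In helper T cells the receptor repertoire is set during differentiation: Ccr6, the receptor for Ccl20, is the classical receptor of Th17 cells, Cxcr3 that of Th1 cells, Ccr4 and Ccr8 are found on Th2, regulatory and skin-homing cells, Ccr9 on gut-homing cells and Cxcr5 on follicular helper cells.

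Promoter sequences are shown for the receptors called different between the groups, Cxcr5 aside, so that the letters at their start sites can be read beside their levels. RefSeq (GRCm38.p6) held windows of 300 bases, 250 before and 50 after a start site, for 8 of the 9 receptors (9 windows, Ccr6 having 2; Cxcr5 had no entry). Capitals mark matches, on either strand, to the core AGGTCA bound by ROR and other nuclear receptors, to TGANTCA for AP-1, to TTCNNNGAA for STAT, to AGATAA for GATA and to TCACACC for T-box factors, and to an extended ROR element, which contains the first core and was added after the sequences had been seen.
Ccr4, chr9:114496495-114496794, minus strand: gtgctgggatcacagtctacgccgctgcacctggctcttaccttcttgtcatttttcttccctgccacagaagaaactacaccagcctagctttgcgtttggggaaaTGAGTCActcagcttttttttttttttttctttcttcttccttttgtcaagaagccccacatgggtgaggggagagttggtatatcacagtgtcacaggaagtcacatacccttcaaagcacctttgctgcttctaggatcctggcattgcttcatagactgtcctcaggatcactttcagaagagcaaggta
Ccr6, chr17:8235793-8236092, plus strand, upstream window: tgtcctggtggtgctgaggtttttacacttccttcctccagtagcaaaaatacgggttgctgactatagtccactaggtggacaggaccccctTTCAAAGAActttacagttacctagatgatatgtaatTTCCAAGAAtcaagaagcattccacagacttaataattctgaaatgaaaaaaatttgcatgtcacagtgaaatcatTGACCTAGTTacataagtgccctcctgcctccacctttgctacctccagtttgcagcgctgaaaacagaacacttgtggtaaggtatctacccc
Ccr9, chr9:123766961-123767260, plus strand: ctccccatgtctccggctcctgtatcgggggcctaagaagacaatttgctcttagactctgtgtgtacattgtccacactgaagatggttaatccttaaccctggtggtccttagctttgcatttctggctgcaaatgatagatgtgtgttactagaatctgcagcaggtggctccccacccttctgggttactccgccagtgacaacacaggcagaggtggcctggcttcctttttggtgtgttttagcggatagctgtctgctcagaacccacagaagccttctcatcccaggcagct
The Ccr4 window held 1 AP-1 match, TGAGTCA, which starts 143 bases before the start site. The upstream Ccr6 window held 2 STAT matches, starting 157 and 120 bases before the start site, and 1 match to the extended ROR element on the minus strand, whose leftmost base lies 44 bases before it. The Ccr9 window held none of these letters. Of all 32851 windows in the table, 16.3% held the AGGTCA core, 7.81% the AP-1, 8.3% the STAT, 11.2% the GATA, 3.98% the T-box and 0.219% the extended ROR letters. Among the receptor windows, the core, the extended element and the STAT letters each occurred in Ccr6 alone and the AP-1 letters in Ccr4 alone. GATA letters occurred in Ccr2, Ccr8 and the downstream Ccr6 window, and no receptor window held the T-box letters.

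The libraries held 16489813 to 51271226 counts, and levels are given as CPM, counts put on one common library size with TMM factors. Rtf1 itself fell to 37.3% of its control level by the fitted ratio, with every KO library below every control library. The 9 markers of helper T cells were all tested and summed to 3384 to 3865 CPM in control and 1700 to 2288 CPM in KO. Cd3e and Cd3g were called higher, and 5 markers, Cd4, Il17a, Il17f, Il21 and Il23r, were called lower. Il17f (mean 1231.5 CPM in control and 506.65 in KO) and Il21 (724 and 162) fell by the most CPM. The 10 myeloid and dendritic cell markers summed to 46.8 to 60.0 CPM in control and 95.6 to 146 CPM in KO. Cst3, Cd68 and Csf1r were called higher among them, while Itgam and S100a8 were at or under 3 counts in every library. Most of this sum was Cst3 (mean 50.7 CPM in control and 98.8 CPM in KO). The 4 markers of innate-like T cells in the table, of 5 listed, summed to 2.01 to 2.59 CPM in control and 4.59 to 6.46 CPM in KO, with Zbtb16 called higher. The 7 markers of CD8 T and natural killer cells summed to 7.23 to 10.98 CPM in control and 8.36 to 13.3 CPM in KO. Most of this sum was Cd8b1, which was lower in KO but not called (mean 7.91 CPM in control and 6.42 CPM in KO). Cd8a was not called either. Eomes (mean 0.099 CPM in control and 1.55 CPM in KO) and Gzma (0.314 and 1.53) were called higher from low levels. Klrb1c and Ncr1 were at 0 counts in every library. Replicate 3 of each group carried Y-linked transcripts, of which the other libraries held 1 to 3 counts. Xist had 5 counts in control replicate 3, 1 in KO replicate 3 and 14668 to 28176 in the other libraries. Each group therefore mixed male and female patterns, and its libraries did not all come from the same animal. For this reason 1 of the alternatives below keeps the libraries numbered 1 and 2 alone.

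Of the 9 receptors, 2 were lower in KO (Ccr4 and Ccr6) and 2 higher (Ccr9 and Cxcr5), and 5 were not called (edgeR quasi-likelihood test, adjusted p under 0.05 over all tested genes). Across all tested genes 46.1% were called, 23.2% higher and 22.9% lower, so 4 of 9 is close to the background. The KO and control libraries did not overlap for 4 receptors (Ccr4 below, Ccr9, Cxcr3 and Cxcr5 above), where 57.9% of all tested genes did not overlap, 29.9% with KO above and 28.0% with KO below. The median log2 fold change of the 9 was −0.39, beside 0.013 for all tested genes. The count of called receptors fell to 1 (Ccr4) without control replicate 1, to 2 (Ccr4 and Cxcr4) without KO replicate 2 and to 2 (Ccr4 and Cxcr5) without KO replicate 3. In bulk RNA, a smaller share of cells carrying a receptor and less RNA per cell cannot be told apart.

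**Figure D1:**
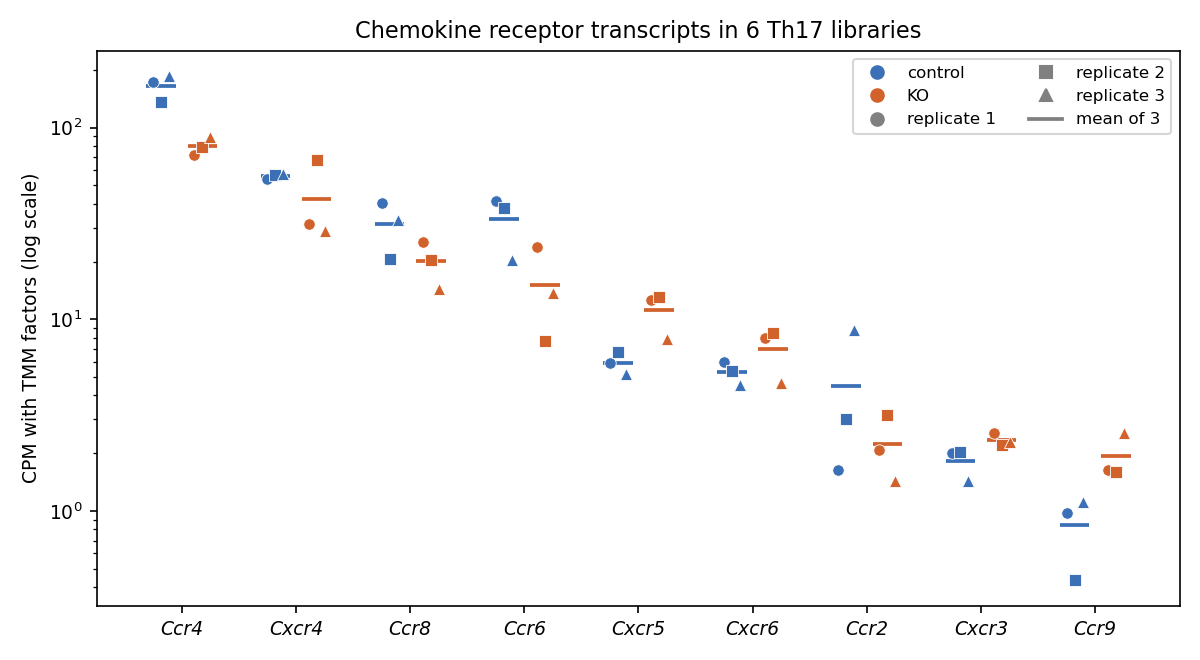
CPM with TMM factors on a log axis for the 9 receptors, ordered by mean level. Each symbol is 1 library (circle, square and triangle for replicates 1, 2 and 3; blue for control, orange for KO) and each bar the mean of 3. The groups separate for Ccr4, Cxcr5, Cxcr3 and Ccr9 and overlap for the other 5.

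Ccr4, the receptor for Ccl17 and Ccl22, had the highest level per length of the 9 (chr9:114490316-114504916, minus strand, GRCm38). It held 172, 136 and 186 CPM in the control libraries numbered 1, 2 and 3 and 72.3, 78.8 and 89.2 CPM in the KO libraries in the same order. Every KO library was below every control library, at 42.0%, 58.0% and 48.0% of the control library of equal number. The means were 165 ± 25.8 and 80.1 ± 8.51 CPM (SD, n = 3), and the fitted log2 ratio of KO to control was −1.04 with an SE of 0.145 (adjusted p = 0.000879 by edgeR). This call held in all 15 alternatives, with values between −1.18 and −0.96.

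Ccr6 (chr17:8236043-8257141, plus strand) directs Th17 cells toward Ccl20, which epithelia release in inflamed mucosa. Its level was 41.4, 38.2 and 20.3 CPM in the control libraries and 23.7, 7.72 and 13.6 CPM in the KO libraries. The groups overlapped, because control replicate 3 was lower than KO replicate 1. Within each replicate number KO was lower, at 57.3%, 20.2% and 67.1% of control. The means were 33.3 ± 11.4 and 15.02 ± 8.10 CPM (SD, n = 3), and the fitted log2 ratio of KO to control was −1.15 with an SE of 0.397 (adjusted p = 0.0412 by edgeR). The call was lost without control replicate 1 (−1.04), control replicate 2 (−1.04), KO replicate 2 (−0.82) or KO replicate 3 (−1.09), and when libraries were scaled by their totals alone (−1.06).

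Ccr8 (chr9:120092114-120094906, plus strand), the receptor for Ccl1, held 40.4, 20.6 and 32.9 CPM in control and 25.2, 20.5 and 14.4 CPM in KO. The libraries numbered 2 were nearly equal, whereas KO was at 62.4% and 43.9% of control in the pairs numbered 1 and 3. The log2 fold change was −0.63 (SE 0.272) and was not called (edgeR adjusted p = 0.0847). With the replicate number as a block it was called (−0.62, edgeR adjusted p = 0.0282), and it was also called by DESeq2, without a filter and without control replicate 2 (−0.88).

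Cxcr5 (chr9:44511787-44561877, minus strand), the receptor for Cxcl13 that brings follicular helper T cells into B cell follicles, rose. It held 5.9, 6.73 and 5.18 CPM in the control libraries and 12.6, 13.1 and 7.88 CPM in the KO libraries. All KO libraries were above all control libraries, with KO replicate 3 the nearest to them. The means were 5.93 ± 0.775 and 11.2 ± 2.89 CPM (SD, n = 3), and the fitted log2 ratio of KO to control was 0.92 with an SE of 0.241 (adjusted p = 0.0136 by edgeR). The call was lost without control replicate 1 (0.84) or KO replicate 2 (0.80). Of the exonic bases of Cxcr5, 3.3% overlap another gene, Bcl9l. B cells carry Cxcr5 as well, and the 7 B cell markers summed to 1.32 to 3.23 CPM in control and 1.79 to 2.92 CPM in KO.

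Ccr9 (chr9:123678439-123784330, plus strand), the receptor for Ccl25 on cells homing to the small intestine, had the lowest level per length of the 9. It had 16, 21 and 47 counts in control, or 0.973, 0.433 and 1.12 CPM, and 43, 60 and 50 counts in KO, or 1.63, 1.60 and 2.54 CPM. The groups did not overlap. The means were 0.841 ± 0.36 and 1.93 ± 0.534 CPM (SD, n = 3), and the fitted log2 ratio of KO to control was 1.21 with an SE of 0.434 (adjusted p = 0.048 by edgeR). The call held when control replicate 3 was left out and was lost when any 1 of the other 5 libraries was (0.84 to 1.33). Ccr9 is uncertain in another way too, since 21.45% of its exonic bases overlap another gene, mainly AC165425.1. Plasmacytoid dendritic cells carry Ccr9 too. Their 4 markers, Ccr9 among them, summed to 55.3 to 65.0 CPM in control and 63.1 to 78.4 CPM in KO. Tcf4 was also called higher (log2 ratio 0.78). Bst2 went the other way and was not called (mean 37.8 CPM in control and 31.6 CPM in KO, log2 ratio −0.26). Siglech was at or under 3 counts in every library. The part of plasmacytoid dendritic cells in the Ccr9 result was not tested.

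Cxcr3 and Cxcr6, which are receptors of Th1 and tissue-resident T cells for the ligands Cxcl9 and Cxcl10 and for Cxcl16, were not called. Cxcr3 (chrX:101731535-101734269, minus strand) held 2.01, 2.02 and 1.43 CPM in control and 2.54, 2.22 and 2.29 CPM in KO. All KO libraries were above all control libraries, but the gap to the control libraries numbered 1 and 2 was small (log2 ratio 0.37 with an SE of 0.295, adjusted p = 0.324 by edgeR). Cxcr6 (chr9:123806475-123811760, plus strand) held 5.96, 5.39 and 4.54 CPM in control and 7.93, 8.49 and 4.63 CPM in KO, so that KO replicate 3 lay within the control range (log2 ratio 0.42 with an SE of 0.273, adjusted p = 0.239 by edgeR).

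Cxcr4 (chr1:128588199-128592293, minus strand), the receptor for Cxcl12, differed more among the KO libraries than among the control libraries. Its levels were 54.0, 56.6 and 57.1 CPM in control and 31.5, 67.3 and 28.8 CPM in KO. KO replicate 2 was above every control library and the other KO libraries were below them all. The log2 fold change of −0.39 (SE 0.288) was not called (edgeR adjusted p = 0.295). Without KO replicate 2 it was −0.89 and called (edgeR adjusted p = 0.00546). The cause of this difference between KO libraries was not tested.

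Ccr2 (chr9:124101950-124113557, plus strand), the receptor for Ccl2 best known from inflammatory monocytes and also present on pathogenic helper T cells, depended on 1 library. It held 1.64, 3.01 and 8.77 CPM in control and 2.09, 3.15 and 1.42 CPM in KO, and the high value was that of control replicate 3. The log2 fold change was −1.01 (an SE of 0.574, adjusted p = 0.177 by edgeR), −0.16 without that library and 0.14 with the libraries numbered 1 and 2 alone. Among the control libraries the myeloid markers Cd68 (4.42 CPM) and Csf1r (0.451 CPM, against 0.426 in control replicate 1) were also highest in control replicate 3. Cst3 (57.1 CPM), Cd14 (0.495 CPM) and the sum of the 10 myeloid and dendritic cell markers (60.0 CPM) were instead highest in control replicate 2. In KO, Cd68 (13.3, 21.4 and 25.3 CPM) and Csf1r (1.33, 0.587 and 1.63 CPM) were above every control library. Both were highest in KO replicate 3, where Ccr2 was lowest. The part of myeloid cells in the Ccr2 value was not tested.

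To compare levels between receptors, CPM were divided by the length of the merged exons in kb. In control the order among the 9 was Ccr4 (53.2 ± 8.35 CPM per kb, SD, n = 3), Cxcr4 (30.9 ± 0.908), Ccr8 (26.6 ± 8.53), Ccr6 (14.3 ± 4.89), Cxcr6 (2.74 ± 0.37), Cxcr5 (1.78 ± 0.233), Cxcr3 (1.05 ± 0.196), Ccr2 (0.662 ± 0.559) and Ccr9 (0.082 ± 0.0351). The mean order was the same in KO, from Ccr4 at 25.9 ± 2.75 CPM per kb to Ccr9 at 0.188 ± 0.052. The libraries of Cxcr4 and Ccr8, Ccr8 and Ccr6, and Cxcr3 and Ccr2 overlapped in control, so the order of these neighbours was not resolved there. In KO the neighbours that overlapped were Ccr4 and Cxcr4, Cxcr4 and Ccr8, Ccr6 and Cxcr6, Cxcr6 and Cxcr5, and Ccr2 and Ccr9. With the longest transcript as the length, Cxcr5 moved ahead of Cxcr6 in KO, and the level of Ccr9 became 0.162 CPM per kb in control and 0.37 in KO.

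Measured against 23 chemokine receptor genes, the 9 receptors together took 48.6%, 39.5% and 42.2% of the summed CPM per kb in the control libraries, in replicate order, against 44.2%, 43.2% and 32.6% in the KO libraries. Ccr7, the lymph node homing receptor of naive and central memory T cells and not one of the 9, took 54.3% ± 4.62 in control and 56.6% ± 6.0 in KO (SD, n = 3). Ccr4 took 17.6% ± 2.21 and 12.6% ± 0.889, and Ccr6 took 4.79% ± 1.78 and 3.26% ± 2.03. Cxcr5 took 0.591% ± 0.101 in control and 1.65% ± 0.484 in KO. These shares are descriptions and were not tested.

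**Figure D2:**
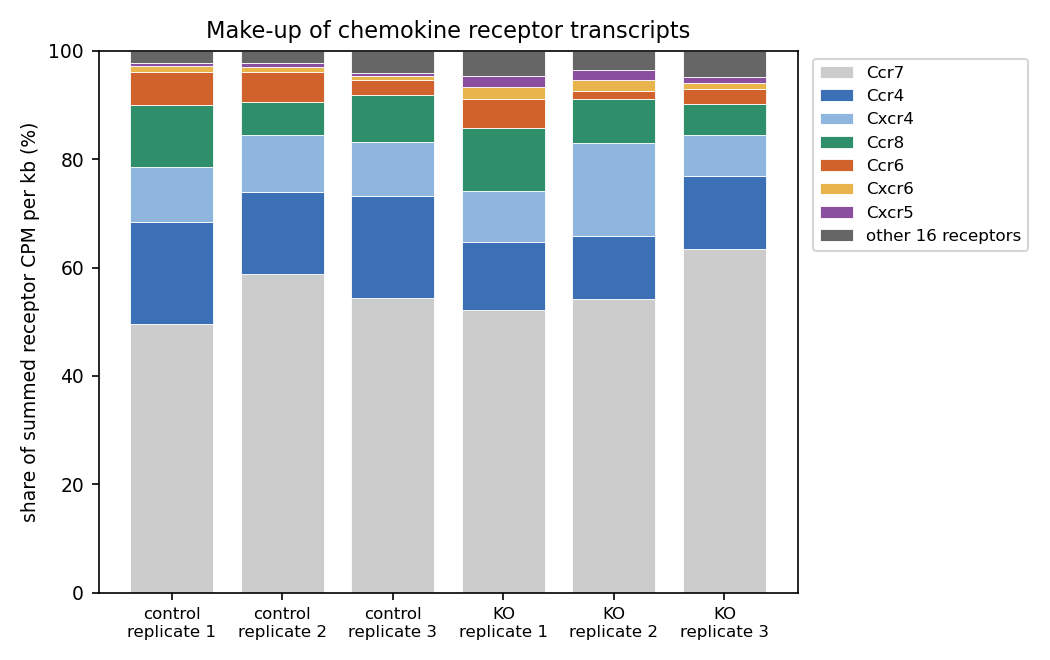
Share of each receptor in the summed CPM per kb of 23 chemokine receptor genes, in percent, stacked for each of the 6 libraries. Ccr7 is the largest share in every library, Ccr4 (dark blue) is narrower in KO (mean 12.6%) than in control (17.6%), and Cxcr5 (purple) is wider in KO (1.65% against 0.591%).

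The 14 other chemokine receptor genes described included 9 that passed the filter, of which 2 were called higher (Xcr1 and Cx3cr1) and 1 lower (Ccr7), with a median log2 fold change of 0.50. Their calls numbered 1 without KO replicate 2, and 5 with the replicate block. The share called over all tested genes was 46.1%. Xcr1, the receptor for Xcl1 known from cross-presenting dendritic cells, rose from 0.912, 0.495 and 0.499 CPM in the control libraries to 4.94, 5.74 and 4.07 CPM in the KO libraries. This was the largest change among the 18 tested receptors described, with a log2 ratio of 3.02, an SE of 0.352 and an adjusted p of 0.000435 by edgeR, and its call held in all 15 alternatives. Cx3cr1, the fractalkine receptor of monocytes and cytotoxic T cells, rose from 0.555 ± 0.212 to 1.37 ± 0.262 CPM (SD over 3 libraries), with a log2 ratio of 1.37 and an SE of 0.401 (adjusted p = 0.0217 by edgeR), a call lost without control replicate 3, KO replicate 2 or KO replicate 3. The myeloid and dendritic cell marker sum was also higher in every KO library than in every control library. Most of that sum was 1 gene, Cst3 (mean 50.7 CPM in control and 98.8 CPM in KO). Of the markers too low for testing, Lyz2 and Itgax were higher in every KO library, whereas Adgre1, Itgam, S100a8 and Flt3 overlapped between the groups. The part of such cells in the Xcr1 and Cx3cr1 increases was not tested.

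Ccr7 held 291, 341 and 342 CPM in control and 193, 233 and 268 CPM in KO, and every KO library was below every control library (log2 ratio −0.49 with an SE of 0.147, adjusted p = 0.0233 by edgeR). This call was lost without control replicate 2, KO replicate 1 or KO replicate 2.

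**Figure D3:**
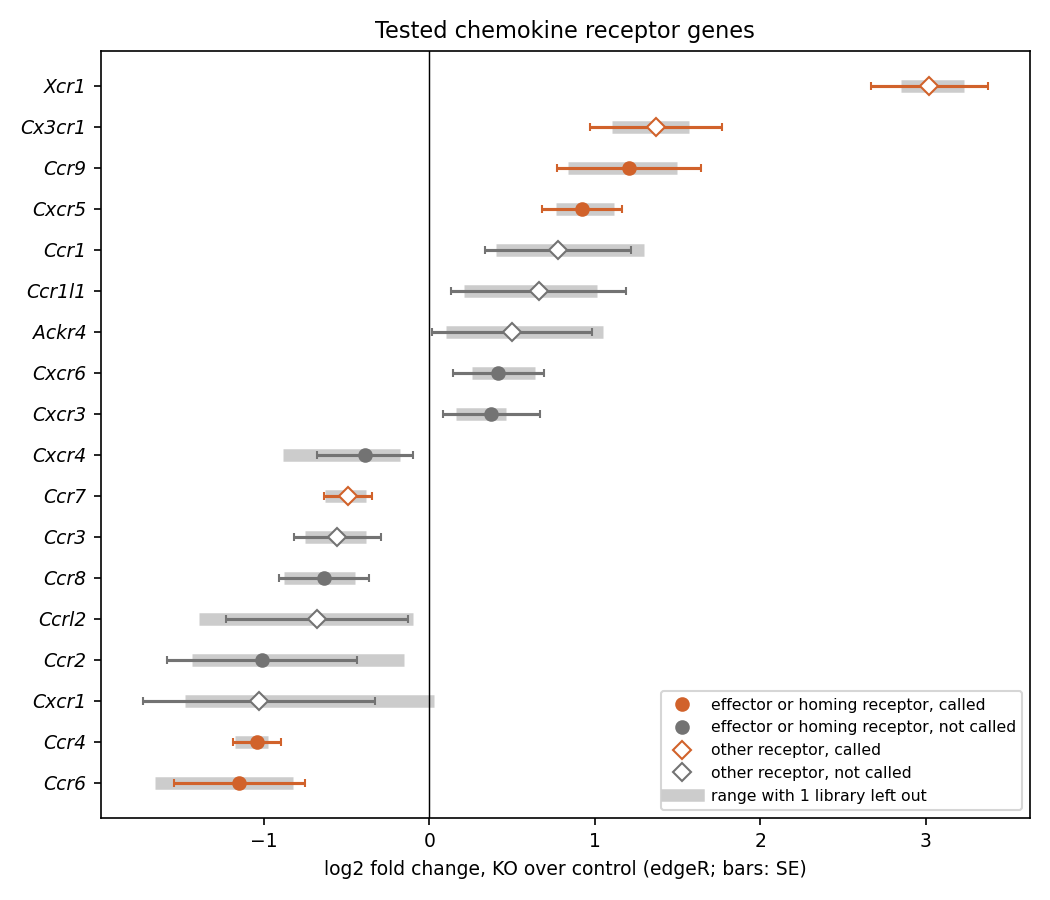
log2 fold change of KO over control with its SE for 18 tested chemokine receptor genes (circles, the 9 effector and homing receptors; diamonds, the others; orange, called by edgeR). Grey bands give the range when 1 library is left out. The band of Ccr4 is narrow, from −1.18 to −0.98, and that of Ccr2 reaches from −1.43 to −0.16.

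Of the 9 receptors, 6 lie on chromosome 9. Ccr9, Cxcr6 and Ccr2 stand in 1 cluster with Xcr1, Ccr1 and Ccr3, and the 11 listed genes of this stretch span 584 kb (GRCm38, chr9:123529759-124113557). Of these, 10 were tested, with Slc6a20b, Ccr9 and Xcr1 called higher and 7 not called. Across all tested genes 46.1% were called. Cxcr6 lies within the span of Fyco1, which is on the minus strand and was not called (log2 ratio 0.55 with an SE of 0.201, adjusted p = 0.0512 by edgeR). Fyco1 was called with the replicate block (0.58, edgeR adjusted p = 0.0223), and in the whole list, which holds 4 further genes far from the cluster, the block raised the calls from 3 to 7, adding Fyco1, Sacm1l, Ccr1 (0.90) and Ccrl2.

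By position along the chromosome, the log2 fold changes of the receptors were 1.21 for Ccr9, 0.42 for Cxcr6, 3.02 for Xcr1, 0.78 for Ccr1, −0.56 for Ccr3 and −1.01 for Ccr2. Ccr1l1, which lies between Ccr1 and Ccr3 and was not on this list, had 0.66 (not called). Values were thus positive from Ccr9 to Ccr1l1 and negative for Ccr3 and Ccr2. Among these 7 receptors only Ccr9 and Xcr1 were called, so the signs of the others were not resolved. Without control replicate 3 the value of Ccr2 was −0.16, and with the libraries numbered 1 and 2 alone it was 0.14. The calls in the list numbered 6 without control replicate 3. Ccr4, Ccr8 and Cxcr5 lie elsewhere on chromosome 9, Ccr6 on chromosome 17, Cxcr4 on chromosome 1 and Cxcr3 on the X chromosome.

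**Figure D4:**
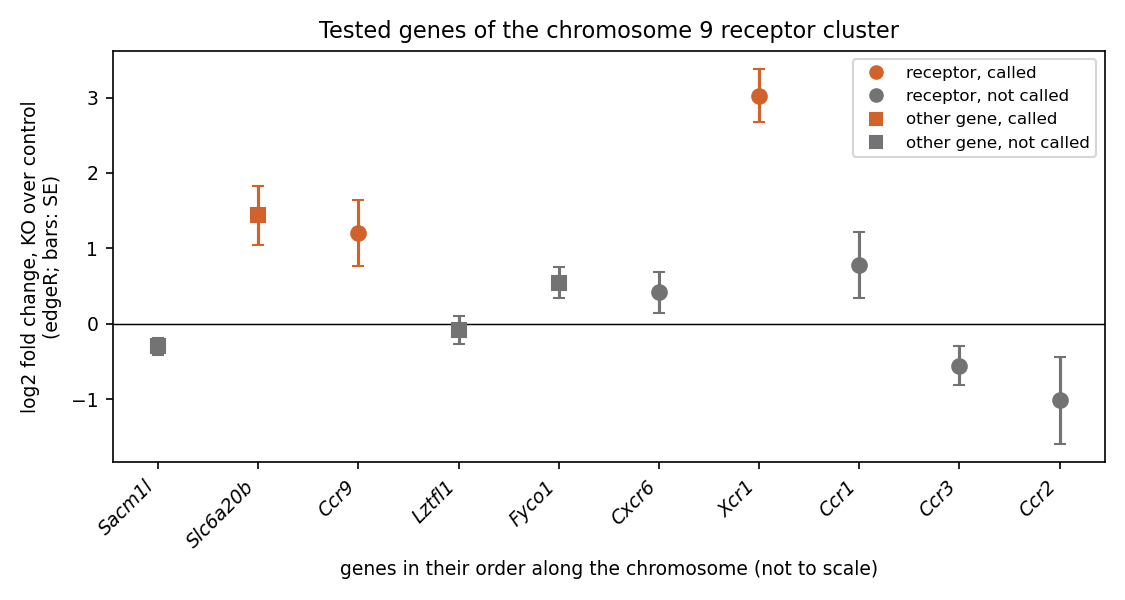
log2 fold change of KO over control with its SE (edgeR) for 10 tested genes of the chromosome 9 receptor cluster, in chromosomal order and not to scale (circles, chemokine receptors; squares, other genes; orange, called). Values run from −1.01 for Ccr2 to 3.02 for Xcr1.

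The transcripts most like the called receptors over the 6 libraries were found by Pearson's r of log2 CPM among genes of at least 5 CPM. The libraries differ by group, so genes that separate the groups correlate by design. Ccr4 was most like Cry2 (r = 0.995) and Sipa1 (0.994), and Ccr6 most like Itgal (0.994) and Polr3d (0.991). Cxcr5 was most like Mex3c (0.995) and Pdlim7 (0.993), and Ccr9 most like Itgav (0.997) and Btbd7 (0.994). Many further genes correlated nearly as strongly with each of these 4 receptors, so the genes named are not particular to them. Itgal and Itgav encode integrin chains.

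Of the chemokine genes, 28 of 29 listed had a row and 10 were tested. Of the 10, 3 were called higher and 3 lower, beside 46.1% called over all tested genes. Their median log2 fold change was 0.30. Ccl25, the ligand of Ccr9, rose from 12.6 ± 3.67 to 27.9 ± 1.54 CPM (SD over 3 libraries), with a log2 ratio of 1.15 and an SE of 0.22 (adjusted p = 0.00331 by edgeR). Ccl4, an inflammatory chemokine, rose from 5.9 ± 1.94 to 33.2 ± 9.53 CPM (log2 ratio 2.47 with an SE of 0.291, adjusted p = 0.000452 by edgeR). Ccl20, the ligand of Ccr6, held 30.2, 42.1 and 4.3 CPM in control and 65.1, 33.7 and 47.5 CPM in KO and was not called (edgeR adjusted p = 0.25). Mif, a cytokine that also binds Cxcr4, fell from 491 ± 69.4 to 156 ± 27.1 CPM (log2 ratio −1.65 with an SE of 0.165, adjusted p = 0.000236 by edgeR).

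The G protein and effector list had 27 tested genes, of which 6 were called higher and 9 lower, or 1 and 8 without control replicate 1. For comparison, 46.1% of all tested genes were called. The median log2 fold change of the list was −0.15. In the fits that left out 1 library, the calls of Dock2 and Elmo1 held throughout. Dock2, the exchange factor that activates Rac in migrating lymphocytes, fell from 327 ± 9.52 to 141 ± 22.8 CPM (SD over 3 libraries), with a log2 ratio of −1.21 and an SE of 0.136 (adjusted p = 0.000381 by edgeR), and its partner Elmo1 fell too (log2 ratio −0.95 with an SE of 0.146, adjusted p = 0.00134 by edgeR). Gnai2, the main inhibitory G protein subunit of T cells, was not called (531 ± 52.5 and 631 ± 44.7 CPM, log2 ratio 0.25, edgeR adjusted p = 0.141), though it was called higher when libraries were scaled by their totals alone (0.34, edgeR adjusted p = 0.0438).

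Among 18 tested genes of receptor desensitisation, 3 were called higher and 6 lower, with a median log2 fold change of −0.13. This is near the 46.1% called over all tested genes. Arrb1, which encodes beta-arrestin 1, fell from 203, 173 and 328 CPM in the control libraries to 33.3, 35.6 and 32.7 CPM in the KO libraries (log2 ratio −2.79 with an SE of 0.231, adjusted p = 0.000122 by edgeR). Rgs1, a brake on Cxcr4 and other receptor signals, fell from 538 ± 17.6 to 219 ± 59.7 CPM (SD over 3 libraries), with a log2 ratio of −1.29 and an SE of 0.194 (adjusted p = 0.0012 by edgeR). Arrb2 (−0.42) and the kinase gene Grk6 (−0.80) were called lower and Rgs2 (1.11) was called higher. The 9 called genes kept their direction and their call in all 15 alternatives.

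Other receptors of T cell traffic gave 4 higher and 1 lower of 11 tested, with a median log2 fold change of 0.35. That count is near the 46.1% called over all tested genes. The leukotriene B4 receptor gene Ltb4r1 fell from 30.1 ± 11.4 to 7.54 ± 1.33 CPM (SD over 3 libraries), with a log2 ratio of −1.996 and an SE of 0.273 (adjusted p = 0.000808 by edgeR). S1pr1, which lets T cells leave lymph nodes, rose from 34.9 ± 12.7 to 58.0 ± 6.11 CPM (log2 ratio 0.73 with an SE of 0.231, adjusted p = 0.0294 by edgeR), a call lost when control replicate 1 or 2 or KO replicate 2 or 3 was left out.

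Of 17 tested transcription factor genes of helper T cell states, 4 were called higher and 3 lower, beside 46.1% called over all tested genes. The median log2 fold change of the 17 was −0.0065. Tbx21 (log2 ratio 2.74, from 3.42 to 23.0 CPM) and Eomes (3.78, from 0.099 to 1.55 CPM) were among those called higher. Satb1 (−1.49) and Bach2 (−0.64) were among those called lower. The calls of Tbx21, Eomes and Satb1 held in all 15 alternatives and that of Bach2 in 13. Bcl6, the factor of follicular helper cells, rose from 8.39, 9.04 and 7.27 CPM in the control libraries to 36.5, 48.4 and 41.7 CPM in the KO libraries (log2 ratio 2.36 with an SE of 0.163, adjusted p = 6.8e-05 by edgeR). Klf2, which drives S1pr1 in naive T cells, rose from 0.583 ± 0.2 to 3.74 ± 1.88 CPM (SD over 3 libraries), with a log2 ratio of 2.62 and an SE of 0.451 (adjusted p = 0.00213 by edgeR). Gata3, the Th2 factor, fell from 35.4 ± 20.7 to 11.7 ± 6.002 CPM (log2 ratio −1.60 with an SE of 0.504, adjusted p = 0.029 by edgeR), a call lost without control replicate 1, KO replicate 1 or KO replicate 2.

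**Figure D5:**
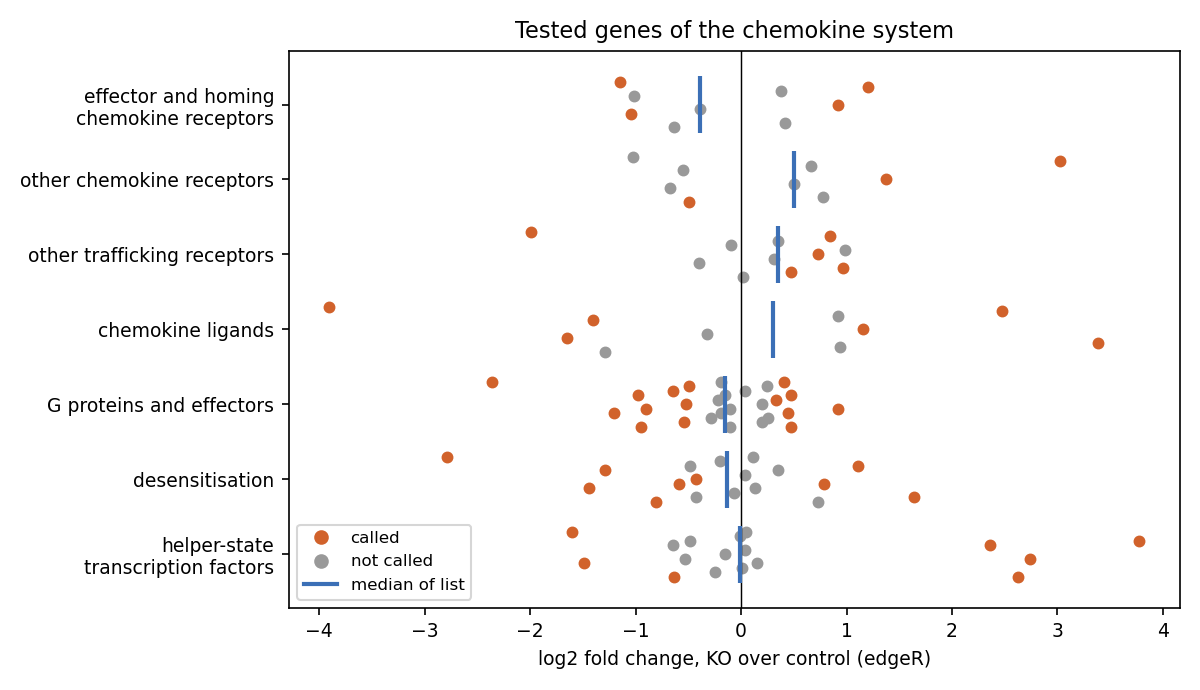
log2 fold change of KO over control (edgeR) for every tested gene of 7 lists of the chemokine system, 1 dot a gene (orange, called; grey, not called), with the median of each list as a blue line. The medians lie between −0.39 for the 9 effector and homing receptors and 0.50 for other chemokine receptors, while single genes run from −3.90 (Cxcl3) to 3.78 (Eomes).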

How the data were processed

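The values the authors deposited are raw counts per gene symbol, 1 column for each of 6 libraries. Per the submitters' processing notes, the tools STAR, featureCounts and DESeq2 and the build mm10 were used. Their versions, roles and settings, the annotation and the strand setting are not given in the sources used here. Columns were matched to samples by description, and groups and replicate numbers were taken from titles. There were 0 columns without a sample and 0 rows without a gene name.

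KO was tested against control with edgeR 4.0.16 in R 4.3.3 (quasi-likelihood test, TMM factors, filterByExpr by group, no covariate), with Benjamini-Hochberg adjustment over 14268 genes and calls at 0.05. The SE is the absolute log2 fold change over the square root of F. Counting intervals are not given, since reads without molecular identifiers are not independent, and the spread between libraries (a biological coefficient of variation of 0.212) sets the precision. The procedure was tested on simulated data. It called 56% of genes with a simulated log2 change of −1 and 68% of those with 1. At −2 and 2 it called 94% and 100%. The simulation changed 50 genes at each of these values among 14280 fitted, far fewer than the 6574 genes called here. The adjustment was therefore stricter on the simulated p-values, and these rates do not give the recovery in this comparison. A receptor not called may still differ by a log2 change near −1 or 1. Alternatives were 4 scalings, 2 filters, DESeq2 1.42.0, a replicate block, 6 fits leaving out 1 library, and the libraries numbered 1 and 2 alone.

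Lengths, positions, exon overlap and shared 50-base stretches come from GENCODE M21 (GRCm38, which is mm10). Same-numbered libraries correlated in their deviations from the group means across genes (0.27, 0.13 and 0.379), and on this basis the numbers were read as pairs. Control replicate 2 and KO replicate 1 also correlated (0.204), more than the pair numbered 2. The other differently numbered pairs ran from −0.39 to −0.018. Deviations within a group cancel out for each gene, so positive values for some pairs force negative ones for others. Pairing was therefore not established. The labels do not say what the numbers stand for. For the libraries numbered 3, pairing and shared Y-linked transcripts cannot be told apart. The receptors and lists were chosen with earlier results of these data known. Named beside the receptors were Rtf1 and, from each list, genes picked from the 6 largest called changes per direction with at least 1 CPM, tested genes of the cluster, the 2 genes most like each called receptor, and receptor ligands. 1 listed gene is not reported here and is left out of the list counts and shares. Gnai2 and Ccr1l1 were named after their values were seen.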

Additional observations from a re-analysis of the deposited data

How the results depend on the processing

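Leaving out 1 library at a time gave 4460 to 7050 called genes in all, 1 to 4 called receptors among the 9, 1 to 3 called genes among other chemokine receptors, 9 to 15 among G proteins and effectors and 2 to 6 in the chromosome 9 list. The receptors whose call changed in such fits ranged from −1.66 to −0.82 (Ccr6), −0.88 to −0.45 (Ccr8), 0.84 to 1.496 (Ccr9), −0.89 to −0.18 (Cxcr4) and 0.76 to 1.12 (Cxcr5) in log2 fold change. Ccr6 was no longer called when scaled by library totals alone (−1.06, edgeR adjusted p = 0.0519), nor Ccr9 with upper-quartile factors (1.18) and with the libraries numbered 1 and 2 alone (1.30). Ccr8 gained a call with no filter (−0.64), by DESeq2 (−0.65) and with the replicate block (−0.62). The replicate block also raised the calls among other chemokine receptors to 5 and in the chromosome 9 list to 7. It changed no other call among the 9 receptors or among the genes named outside these lists. With the libraries numbered 1 and 2 alone, Ccr2 turned to 0.14. Without a filter, 10 chemokine genes and 5 genes of the chromosome 9 list were called, and DESeq2 also called 5 in that list. Lztfl1, a neighbour of Ccr9 that was never called, was positive with scaling by library totals alone (0.0059) and with the libraries numbered 1 and 2 alone (0.15), and ran from −0.25 to 0.068 when 1 library was left out (positive without control replicate 3). The cause of these changes was not tested. Ccr4 and Rtf1 kept direction and call in all 15 alternatives. Depth limits Ccr9 most, with 16 to 60 counts per library.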

Other observations

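Some listed genes were too low for testing with the filter used. Cxcl9, a ligand of Cxcr3, had 0, 1 and 0 counts in control replicates 1, 2 and 3 and 34, 5 and 47 counts in KO replicates 1, 2 and 3. Xcl1, the ligand of Xcr1, had 0 counts in every control library and 6, 4 and 4 in the KO libraries. Ascl2, a factor that induces Cxcr5 in follicular helper cells, had 5, 17 and 20 counts in control and 0, 2 and 0 in KO, while Cxcr5 itself was higher in KO. Slc6a20a, next to Ccr9 on chromosome 9, had 0 counts in every control library and 7, 9 and 6 in the KO libraries.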
